A study of Schmidtea mediterranea with 6 samples.

Results

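The 3 contigs described here, dd_345, dd_497, and dd_961, encode short metalloproteases of the astacin family in the planarian *Schmidtea mediterranea*. They were chosen by their identifiers (dd_Smed_v6_345_0_1, dd_Smed_v6_497_0_1, and dd_Smed_v6_961_0_1) because their levels varied widely between these libraries, so their levels and their difference between conditions are given as a description without a test. They are 3 of 28742 contigs in the count table, of which 27308 had at least 1 read and 15333, the 3 contigs among them, had enough reads to be tested. RNA came from tails of asexual CIW4 animals fed double-stranded RNA against *hmcn-1*, which encodes the extracellular matrix glycoprotein hemicentin-1, or against *C. elegans unc-22*, a sequence that planarians lack. Both conditions received 4 feedings and were cut at 13 days of RNAi. Each library held RNA of 5 pooled tails collected within minutes of amputation, and there were 3 libraries of each condition. No source used here says whether the 3 pools of a condition came from separate RNAi experiments, so the spread between replicates is the spread between these pools.

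Astacins are zinc-dependent endopeptidases named after a digestive enzyme of the crayfish. Most are secreted as inactive precursors, and family members elsewhere in the animal kingdom work as digestive enzymes, as hatching enzymes, and as processors of matrix proteins and growth factors. Tolloid, known best from *Drosophila*, carries CUB and EGF domains behind the catalytic domain and cuts the BMP inhibitor Chordin. Meprins are membrane-bound or secreted astacins of vertebrate kidney and intestine, and ovastacin, the product of human *ASTL*, cuts a zona pellucida protein of the egg coat.

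The human names attached to the 3 contigs are best sequence matches (TLL1 for dd_345, MEP1B for dd_497, ASTL for dd_961) and do not state orthology. One gene list of the study gives the name *tolloid* to dd_345, whereas its matrisome table gives that name to another contig, dd_5652, and *tolloid* means dd_5652 here. The predicted proteins had 252 residues for dd_345, 262 for dd_497, and 242 for dd_961, about the size of a signal peptide, a propeptide, and a catalytic domain, with little room for the further domains of Tolloid or meprins. Each held the zinc-binding histidine motif of the family, starting at residue 153 in dd_345, 163 in dd_497, and 144 in dd_961. The 3 proteins were not close copies of each other. Identity over aligned residues was 46.0% between dd_345 and dd_497, 35.8% between dd_345 and dd_961, and 33.1% between dd_497 and dd_961. The closest match of each among the complete short astacins of the study's table was another contig: dd_85 for dd_345 (55.6%), dd_51_1 for dd_497 (47.8%), and dd_76 for dd_961 (74.3%). Reads that match several contigs equally well could have been shared between them in the counting, which was not tested at the level of nucleotides.

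The libraries held 6374450 to 11887127 reads, and control replicate 1 was the smallest. The *hmcn-1* contig itself had 18.5, 18.5, and 16.7 CPM (the count of a contig relative to its library total, scaled by edgeR's TMM factors, as are all CPM here) in the *hmcn-1(RNAi)* libraries, against 205, 206, and 204 CPM in the control libraries, so the targeted gene separated the libraries by their labels. The posterior genes *wnt11-1*, *wntP-2*, and *fz4-1* were at 17.7 to 56.5 CPM in every library, *wnt11-2* was at 6.93 to 10.2 CPM, and *wnt1*, a gene of the posterior pole, was at 0.117 to 0.508 CPM. The 5 anterior genes *sFRP-1*, *notum*, *ndl-4*, *wnt2*, and *ndk* stayed at or under 4.83 CPM. Among the controls, replicate 1 stood apart: per degree of freedom, its chi-square was 7.98 and 6.46 against control replicates 2 and 3, which reached 2.47 against each other. Against the *hmcn-1(RNAi)* libraries it did not, at 5.57 to 5.85. The same values were 4.56 to 6.46 for control replicate 2 and 4.20 to 5.79 for control replicate 3. The spread and fold changes of the 3 astacins are also given without control replicate 1.

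dd_345 had 298, 202, and 388 CPM in *hmcn-1(RNAi)* replicates 1, 2, and 3, against 230, 93.6, and 67.4 CPM in control replicates 1, 2, and 3. dd_497 had 255, 168, and 319 CPM in the *hmcn-1(RNAi)* libraries, against 193, 73.7, and 56.2 CPM in the control libraries. dd_961 had 200.4, 131, and 234 CPM in the *hmcn-1(RNAi)* libraries, against 167, 61.8, and 50.3 CPM in the control libraries. For all 3 contigs *hmcn-1(RNAi)* replicate 3 was highest, followed by *hmcn-1(RNAi)* replicate 1, control replicate 1, *hmcn-1(RNAi)* replicate 2, control replicate 2, and control replicate 3. Neighbours in this order were apart by more than counting error: the 95% exact Poisson intervals of dd_345, for example, ran from 192 to 212 CPM in *hmcn-1(RNAi)* replicate 2 and from 218 to 242 CPM in control replicate 1. These intervals cover counting error only, and rest on 415 to 4583 reads of a contig in a library. The highest library exceeded the lowest 5.75-fold for dd_345, 5.67-fold for dd_497, and 4.65-fold for dd_961.

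**Figure D1:**
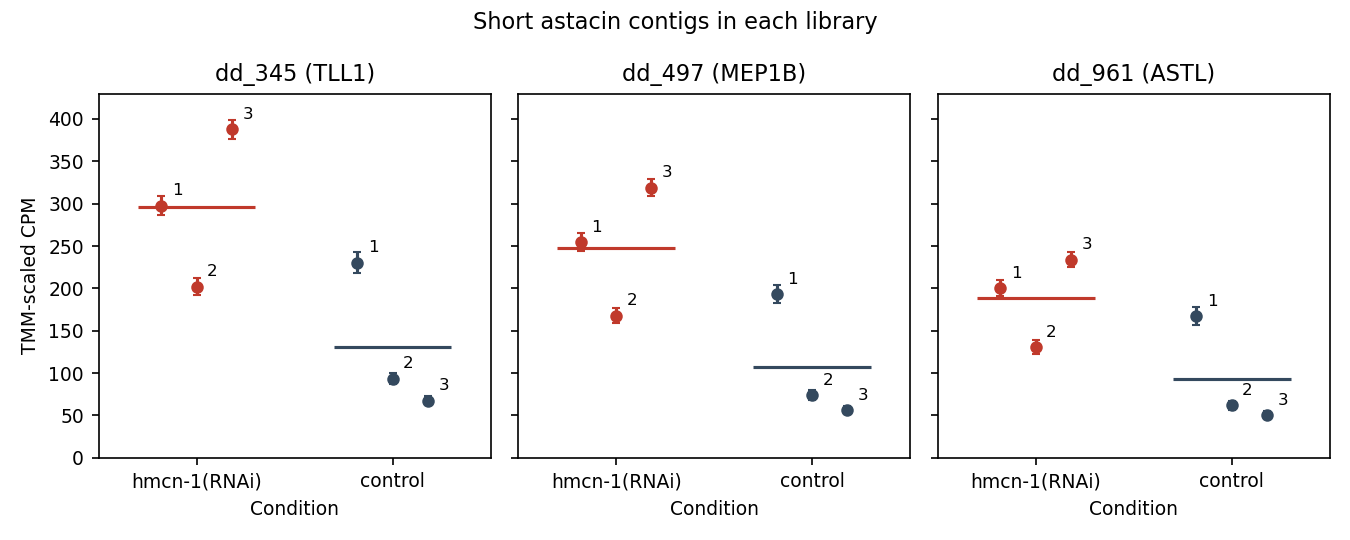
TMM-scaled CPM (vertical axis, from 0) of dd_345, dd_497, and dd_961 in the 3 *hmcn-1(RNAi)* libraries (red, left) and the 3 control libraries (dark blue, right), numbered by replicate. Bars are 95% Poisson intervals of the counts and horizontal lines are means. In each panel *hmcn-1(RNAi)* replicate 2 lies below control replicate 1, at 202 against 230 CPM for dd_345, so the conditions overlap.

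Within a condition the pools differed widely, and more so in the controls. The highest *hmcn-1(RNAi)* library exceeded the lowest 1.92-fold for dd_345, 1.90-fold for dd_497, and 1.79-fold for dd_961, and the highest control library exceeded the lowest 3.41-fold, 3.44-fold, and 3.32-fold for the same contigs. The control ratio came from replicate 1. Without it, control replicates 2 and 3 differed 1.39-fold for dd_345, 1.31-fold for dd_497, and 1.23-fold for dd_961. Likewise, *hmcn-1(RNAi)* replicate 2 was the low library of its condition, and without it the other *hmcn-1(RNAi)* libraries differed 1.30-fold, 1.25-fold, and 1.17-fold. The biological coefficient of variation (BCV), edgeR's estimate of the relative spread between replicates beyond counting error, was 48.6% for dd_345, 49.4% for dd_497, and 48.5% for dd_961, against 6.41% for the median tested contig. Ranked from the largest BCV among 15333 tested contigs, dd_497 stood at 53, dd_345 at 57, and dd_961 at 58.

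**Figure D2:**
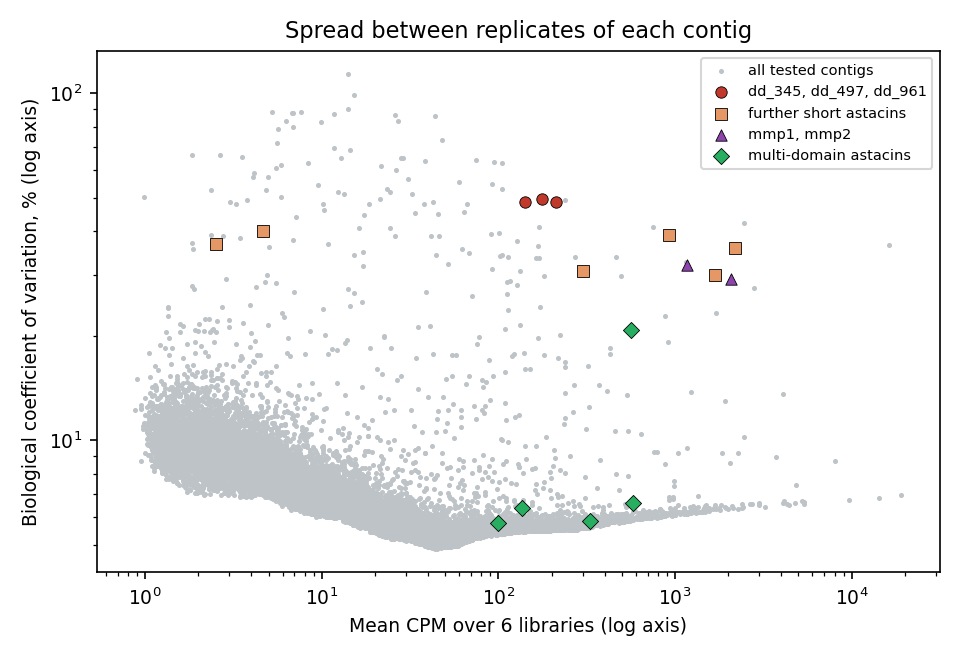
BCV in percent (vertical log axis) against mean CPM over the 6 libraries (horizontal log axis) of all 15333 tested contigs (grey), with dd_345, dd_497, and dd_961 as red circles. The 3 contigs sit between 48.5% and 49.4%, further short astacins (orange squares) and *mmp1* and *mmp2* (purple triangles) between 29.1% and 40.1%. Of the 5 multi-domain astacins (green diamonds), 4 sit between 5.77% and 6.60%, and dd_254 at 20.8%.

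Between conditions, the means were higher in *hmcn-1(RNAi)* tails for all 3 contigs, but the libraries overlapped. dd_345 averaged 296 ± 92.9 CPM in *hmcn-1(RNAi)* and 130.4 ± 87.4 CPM in control tails (SD, n = 3 each). dd_497 averaged 247 ± 75.6 CPM in *hmcn-1(RNAi)* and 108 ± 74.4 CPM in control tails, and dd_961 188 ± 52.6 CPM in *hmcn-1(RNAi)* and 93.1 ± 64.4 CPM in control tails. The log2 fold change of *hmcn-1(RNAi)* over control was 1.21 with a standard error of 0.58 for dd_345, 1.23 with a standard error of 0.59 for dd_497, and 1.055 with a standard error of 0.57 for dd_961. The conditions did not separate for any of the 3 contigs, whereas they did for 15.6% of all tested contigs, a share from which nothing is read here because the contigs were chosen on these values. The size of the difference depended on the libraries used, and most on control replicate 1. Without that library the log2 fold changes were 1.88, 1.93, and 1.75 for dd_345, dd_497, and dd_961. Without control replicate 3 they were 0.89, 0.92, and 0.75. Control replicate 1 was the only control library above any *hmcn-1(RNAi)* library, so leaving it out separated the conditions by construction. In bulk tails, a different number of cells that express these genes and a different amount of RNA in each cell cannot be told apart.

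The 3 contigs varied in near-fixed proportion. Over the 6 libraries, Pearson's r of log2 CPM was 0.999 between dd_345 and dd_497, 0.995 between dd_345 and dd_961, and 0.997 between dd_497 and dd_961, and Spearman's rho was 1 for each pair because the order of libraries was the same. Taken as deviations from the mean of each condition, the correlations were 0.993 to 0.999, so the contigs moved together within conditions. Without control replicates 2 and 3, the libraries farthest from the median, r over the remaining 4 was 0.969 to 0.998. These correlations are descriptions over 6 libraries whose values share depth and composition. The ratio of dd_497 to dd_345 stayed between 0.822 and 0.856 in *hmcn-1(RNAi)* and between 0.787 and 0.838 in control libraries. That of dd_961 to dd_345 was 0.603 to 0.673 in *hmcn-1(RNAi)* and 0.661 to 0.746 in control libraries. dd_961 was thus the contig with the smaller range, and its ratio to dd_497 was lower in every *hmcn-1(RNAi)* library (0.734 to 0.787) than in any control library (0.839 to 0.896). The contigs were chosen on these values, so this separation is a description without a test.

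The study's table holds 11 further astacin contigs, here divided into 6 short ones, with little beyond the catalytic domain, and 5 that are longer or carry added domains. None of the 11 was called different between conditions by edgeR's quasi-likelihood test at a Benjamini-Hochberg adjusted p under 0.05, against 1.13% of all tested contigs (173 of 15333, 79 higher and 94 lower in *hmcn-1(RNAi)*). None had an unadjusted p under 0.05, and DESeq2 called 0 of the 11. The median log2 fold change was 0.47 over the short astacins other than dd_51_1, and -0.01 over the longer astacins. The median over all tested contigs was 8.9e-05.

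The short astacins followed the library order of dd_345 in part, over a smaller range except for dd_11244. dd_76 had 1967.05, 1732, and 2186 CPM in *hmcn-1(RNAi)*, against 2130, 1166, and 962 CPM in control libraries (log2 fold change 0.47, standard error 0.36, adjusted p = 0.74 by edgeR). dd_85 had 1081, 862, and 1301 CPM in *hmcn-1(RNAi)*, against 1241, 573, and 458 CPM in control libraries (log2 fold change 0.52, standard error 0.47, adjusted p = 0.78 by edgeR). In both, control replicates 2 and 3 were the low libraries, and control replicate 1 stood within the range of the *hmcn-1(RNAi)* libraries, as for dd_345. dd_51_1 had 2565, 2093, and 3050 CPM in *hmcn-1(RNAi)*, against 2878, 1404, and 1154 CPM in control libraries. The related dd_51_0 had 349, 296, and 387 CPM in *hmcn-1(RNAi)*, against 386, 209.5, and 172 CPM in control libraries. The predicted proteins of dd_51_0 and dd_85 were identical at 95.1% of aligned residues, so these contigs may share reads and are not independent observations. The least abundant short astacins, dd_12688 and dd_11244, lay between 0.728 and 7.73 CPM. dd_11244 ranged 6.27-fold over the 6 libraries, more than the 5.75-fold of dd_345, but on only 6 to 39 reads in a library. dd_11244 is listed in the study's table as part of dd_12688. dd_12688 was the only one of the 11 whose call depended on a library: without control replicate 1 it was called higher in *hmcn-1(RNAi)* (log2 fold change 1.16, standard error 0.25, adjusted p = 0.0051 by edgeR). Control replicate 1 was its highest library, at 7.73 CPM, so leaving it out separated the conditions by construction. Control replicates 2 and 3 then held only 18 and 21 reads of dd_12688.

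Relative to all short astacins, the sum of dd_345, dd_497, and dd_961 was higher in each *hmcn-1(RNAi)* library than in any control library. Together they held 11.2%, 9.11%, and 11.9% of the reads of all 9 short astacins in *hmcn-1(RNAi)* replicates 1, 2, and 3, against 8.16%, 6.39%, and 5.95% in control replicates 1, 2, and 3. The ratio of dd_345 to dd_76 was 0.151, 0.117, and 0.177 in the *hmcn-1(RNAi)* libraries, against 0.108, 0.080, and 0.070 in the control libraries. The conditions did not overlap in this ratio, nor in that of dd_345 to dd_85, which was 0.234 to 0.298 in *hmcn-1(RNAi)* and 0.147 to 0.185 in control libraries. By contrast, the ratio of dd_961 to dd_76, its closest match in sequence, overlapped, at 0.075 to 0.107 in *hmcn-1(RNAi)* and 0.052 to 0.079 in control libraries. The ratio of dd_85 to dd_76 also overlapped, at 0.498 to 0.595 in *hmcn-1(RNAi)* and 0.476 to 0.583 in control libraries. Ratios without any of the 3 contigs could also separate the conditions: that of dd_51_0 to dd_76 was 0.171 to 0.177 in *hmcn-1(RNAi)* and 0.179 to 0.181 in control libraries, and that of *mmp1* to dd_76 was 1.18 to 1.22 in *hmcn-1(RNAi)* and 1.26 to 1.31 in control libraries. These ratios were computed after the values of the contigs were seen and carry no test.

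**Figure D3:**
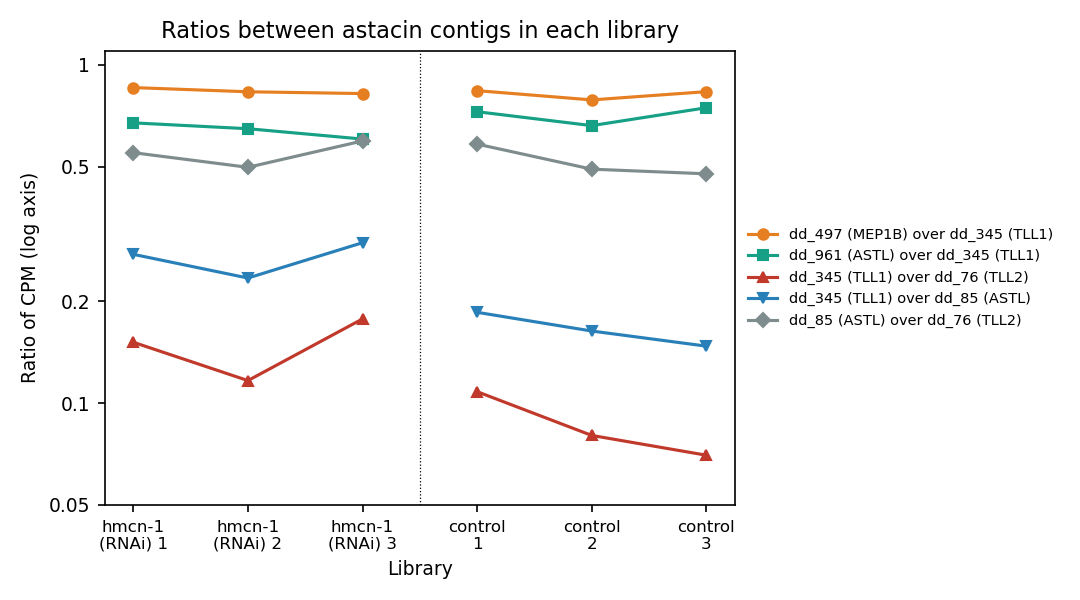
Ratios of CPM between pairs of astacin contigs (vertical log axis) in the 3 *hmcn-1(RNAi)* libraries (left of the dotted line) and the 3 control libraries (right), with lines joining the points of a pair as a guide only. The ratio of dd_497 to dd_345 stays between 0.787 and 0.856 in all 6 libraries, while that of dd_345 to dd_76 is 0.117 or more in *hmcn-1(RNAi)* and 0.108 or less in control libraries.

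Apart from dd_254, astacins with further domains or a longer chain did not share the pattern. *tolloid* had 97.8, 96.5, and 93.9 CPM in *hmcn-1(RNAi)*, against 94.9, 101, and 112 CPM in control libraries, with a log2 fold change of -0.10 (standard error 0.06, adjusted p = 0.56 by edgeR). Its BCV was 5.77%, below that of the median contig. dd_1967 (TLL1), dd_2307 (MEP1B), and dd_3177 (TLL2) had log2 fold changes of -0.01, 0.10, and -0.03, and their highest library exceeded the lowest by no more than 1.25-fold. dd_254 (MEP1A) was intermediate, with a BCV of 20.8% and a 2.14-fold range over the libraries. It had 608, 722, and 589 CPM in *hmcn-1(RNAi)*, against 559, 559, and 337 CPM in control libraries. Its conditions did not overlap, but its difference was not called (log2 fold change 0.40, standard error 0.25, adjusted p = 0.67 by edgeR), and its low library was control replicate 3 alone.

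Among matrix metalloproteases, zinc enzymes of a separate family that cut collagens and other matrix proteins, *mmp1* and *mmp2* resembled the short astacins. *mmp1* had 2353, 2043, and 2664 CPM in *hmcn-1(RNAi)*, against 2689.6, 1504, and 1259 CPM in control libraries. *mmp2* had 1298, 1194, and 1521 CPM in *hmcn-1(RNAi)*, against 1556, 829, and 662 CPM in control libraries. Control replicate 1 was the highest library for both, and control replicates 2 and 3 were the lowest. Their log2 fold changes were 0.37 (standard error 0.35) for *mmp1* and 0.40 (standard error 0.38) for *mmp2*. A list of 8 contigs held matrix metalloproteases, an ADAMTS protease, and a tissue inhibitor of metalloproteases (TIMP). None of the 8 was called by edgeR as set out above, against 1.13% of all tested contigs, or by DESeq2, and their median log2 fold change was 0.04. The conditions did not overlap for 3 of the 8, against 15.6% of all tested contigs. By edgeR 4 had an unadjusted p under 0.05, from which nothing is read because the share of all tested contigs under it is not given here. The membrane-type *mt-mmpA* had 156, 148, and 147 CPM in *hmcn-1(RNAi)*, against 127, 137, and 136 CPM in control libraries (log2 fold change 0.18, adjusted p = 0.078 by edgeR). *adamts20* had 28.0, 30.6, and 29.4 CPM in *hmcn-1(RNAi)*, against 34.8, 39.4, and 34.3 CPM in control libraries (log2 fold change -0.31, adjusted p = 0.056 by edgeR). *adamts20* was called lower without control replicate 1 (adjusted p = 0.037), with a replicate block (0.036), and without the filter on low counts (0.026), and *mt-mmpA* was called higher without that filter (0.038), all by edgeR. The *mt-mmpB* contigs and the TIMP2 match dd_8925 varied by at most 1.31-fold between the highest and the lowest library. The MMP28 match dd_6335 ranged 2.30-fold, on 27 to 89 reads in a library, and its conditions overlapped. Its r with the mean profile of the 3 astacins was 0.757, and 0.840 without control replicates 2 and 3.

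**Figure D4:**
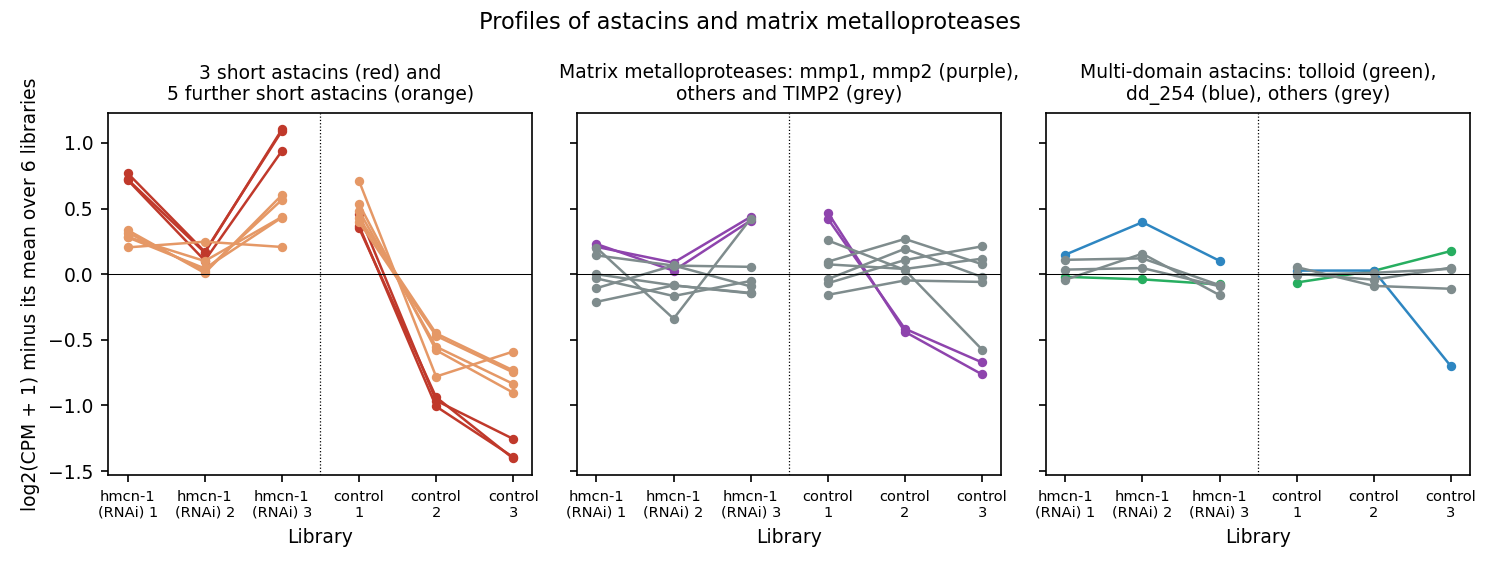
Values of log2(CPM + 1) minus the mean over the 6 libraries (vertical axis) for each contig in the 3 *hmcn-1(RNAi)* libraries (left of the dotted line) and the 3 control libraries (right), with lines joining the points of a contig as a guide only. Among the contigs drawn, dd_345, dd_497, and dd_961 (red) span the widest range. Short astacins (orange, dd_11244 not drawn) and *mmp1* and *mmp2* (purple) lie below 0 in control replicates 2 and 3. *tolloid* (green, 93.9 to 112 CPM) stays near 0.

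BMP signalling patterns the dorsal-ventral axis of planarians, and Tolloid-family astacins release BMP from its inhibitors in other animals. None of the 6 BMP-related position control genes was called by edgeR or DESeq2, and their median log2 fold change was -0.20. The ligand *bmp* had 2.34, 0.948, and 2.54 CPM in *hmcn-1(RNAi)*, against 3.22, 3.16, and 3.396 CPM in control libraries (log2 fold change -0.70, standard error 0.28, unadjusted p = 0.019 and adjusted p = 0.32 by edgeR). The noggin-like gene *nlg-7* had 9.83, 9.36, and 10.2 CPM in *hmcn-1(RNAi)*, against 12.9, 12.1, and 13.6 CPM in control libraries (log2 fold change -0.38, standard error 0.13, adjusted p = 0.18 by edgeR). The ligand *admp-1b* and the inhibitors *nog-1* and *nlg-8* had log2 fold changes of 0.00, -0.29, and -0.09.

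The contigs most like the 3 astacins were sought across all tested contigs with a mean of at least 10 CPM and an SD of log2 CPM of at least 0.5, of which there were 79 with the 3 included. Likeness was Pearson's r of log2 CPM with the mean of the 3 standardised profiles over 6 libraries. The 10 most alike had r between 0.972 and 0.999. The first, dd_208, had 339, 219, and 403 CPM in *hmcn-1(RNAi)*, against 284, 105, and 83.9 CPM in control libraries, and ranged 4.80-fold, close to the 5.75-fold of dd_345. The second, dd_1003, had r = 0.993 and ranged 3.08-fold. 9 of the 10, including these, have no name in the study's tables. The exception was another short astacin, dd_51_1, with r = 0.974. dd_76 and *mmp2* fell just under the floor on the SD, at 0.494 and 0.498.

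The same measure was then ranked, as a choice made after the values were seen, over the 506 other tested contigs of the study's matrisome tables, without a floor on the SD. The 4 most alike contigs were all short astacins: dd_76 (r = 0.975), dd_51_1 (0.974), dd_85 (0.971), and dd_51_0 (0.969). *mmp1* followed at 0.960, then *val4* (0.955), *mmp2* (0.952), and the MRC1 match dd_2591 (0.9503), and no other contig exceeded 0.95. The multi-domain astacin nearest to the profile ranked 67. *val4*, which ranged 4.14-fold over the 6 libraries, had 15.3, 6.87, and 18.4 CPM in *hmcn-1(RNAi)*, against 11.1, 4.45, and 4.49 CPM in control libraries. For the short astacins, *mmp1*, and *mmp2* above 0.95, the likeness rested on control replicates 2 and 3. Without those libraries, r over the remaining 4 was 0.727 for dd_76, 0.731 for dd_85, 0.621 for *mmp1*, and 0.509 for *mmp2*, against 0.971 for *val4* and 0.987 for dd_208. dd_345, dd_497, and dd_961 themselves kept r of at least 0.969 with each other over those 4 libraries.

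**Figure D5:**
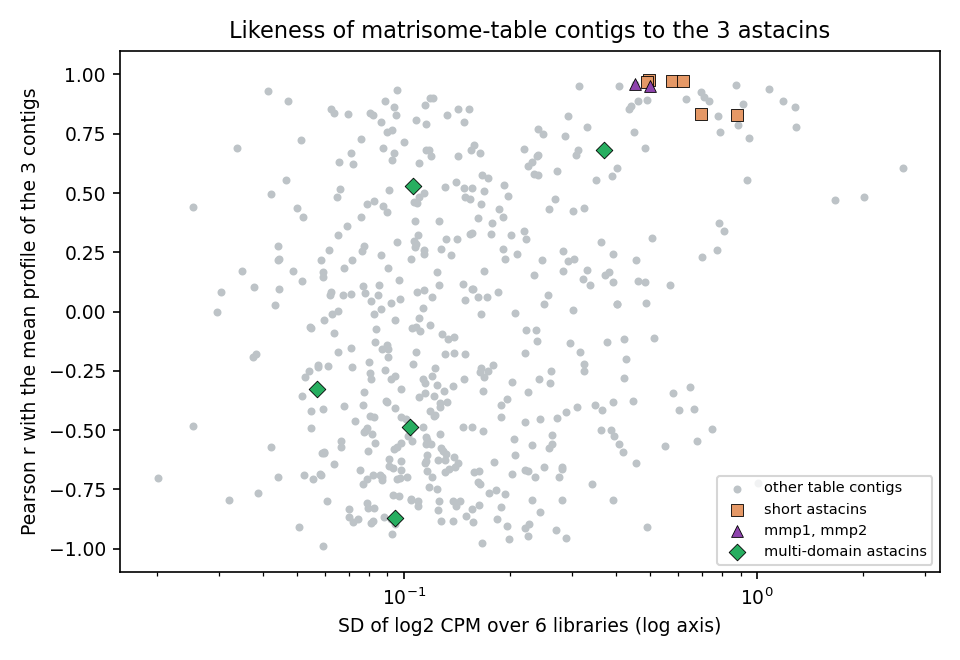
Pearson's r with the mean profile of dd_345, dd_497, and dd_961 (vertical axis) against the SD of log2 CPM over the 6 libraries (horizontal log axis) for the 506 other tested contigs of the study's matrisome tables. 4 short astacins (orange squares) and *mmp1* and *mmp2* (purple triangles) lie between 0.952 and 0.975, whereas the multi-domain astacins (green diamonds) spread below.

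The astacin pattern was set beside the summed levels of marker lists in the same libraries. The study's tables assign dd_345, dd_497, and dd_961 to no cell type. These sums rest mostly on the most abundant contigs of a list, and single markers could range further, such as *titin-like* at 2.92 to 3.47 CPM in *hmcn-1(RNAi)* and 3.38 to 10.3 CPM in control libraries. The 6 parenchymal and gland markers, *mag-1* among them, summed to 6418 to 7554 CPM in *hmcn-1(RNAi)* and 6541 to 6649.8 CPM in control libraries. Of that sum, dd_238 alone held 3360 to 4499 CPM, and the markers went different ways. dd_628 had the library order of the 3 astacins (rho = 1, r = 0.838 with their mean profile) over a 1.16-fold range. For the others r was 0.395 for dd_238, 0.014 for dd_4761, -0.497 for dd_43, -0.792 for dd_515, and -0.832 for *mag-1*. The 8 intestine-assigned contigs summed to 15893 to 16188 CPM in *hmcn-1(RNAi)* and 13797 to 16472 CPM in control libraries. Among the controls, replicate 1 was the highest on that list, as for dd_345, and replicate 2 the lowest, where dd_345 had its lowest value in replicate 3. The list ranged 1.19-fold over the 6 libraries. The 22 contigs assigned to cathepsin+ cells, a phagocytic and pigment-bearing group, ranged 1.09-fold, from 14118 to 15118 CPM in *hmcn-1(RNAi)* and from 13899 to 14569.8 CPM in control libraries. The 7 canonical muscle genes were lower in every *hmcn-1(RNAi)* library, at 7965 to 8213 CPM, than in any control library, at 8995 to 9549.9 CPM, and edgeR called 4 of the 7 lower, against 0.613% of all tested contigs (94 of 15333). The 18 muscle-assigned contigs summed to 12706 to 13097 CPM in *hmcn-1(RNAi)* and 13966 to 14946 CPM in control libraries, with 9 called lower, against the same 0.613% of all tested contigs, and 0 higher. The epidermal lineage markers *prog-2* and *agat-3* summed to 1505 to 1557 CPM in *hmcn-1(RNAi)* and 1636 to 1713 CPM in control libraries. The 5 posterior markers summed to 93.5 to 104 CPM in *hmcn-1(RNAi)* and 96.2 to 123 CPM in control libraries, a 1.32-fold range. The log2 of that sum ran opposite to the mean profile of the 3 astacins (r = -0.884). By gene, r was -0.905 for *fz4-1*, -0.825 for *wnt11-1*, -0.341 for *wnt11-2*, and 0.071 for *wntP-2*. The muscle-assigned sum had r = -0.830, the canonical muscle sum -0.623, and the epidermal-assigned sum -0.841. The intestine-assigned sum had r = 0.711 and the cathepsin+ sum 0.649. For the other lists of this paragraph r lay between -0.595 (epidermal lineage) and 0.141 (parenchymal and gland). The lists of contigs assigned to neural (3 contigs), pharynx (6), epidermal (2), and protonephridial cells (1) ranged 1.48-fold, 1.095-fold, 1.12-fold, and 1.18-fold. The part of any of these lists in the levels of the 3 astacins was not tested.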

How the data were processed

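Poly(A) RNA libraries (Kapa Stranded kit, Illumina HiSeq) were made from tail pools, 3 per condition. The authors mapped reads with bowtie 1.2.2 and its -best option to the dd_Smed_v6 transcriptome, joined isotigs with samtools 1.9, and deposited raw read counts per contig, without normalization. A second deposited table holds the authors' DESeq2 comparison (means, fold changes, p) and was not used. Neither the use of strand nor the treatment of multiply matching reads is given in the sources used here. The labels state feeding on every other day, and the general methods a longer interval.

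Counts were analysed in R 4.3.3 with edgeR 4.0.16 (filterByExpr with a minimum count of 10, TMM, robust quasi-likelihood F test with condition as the only term, Benjamini-Hochberg over 15333 contigs, threshold 0.05), checked on simulated data. The simulated counts had the common BCV of 6.28% for every contig, so the check does not cover contigs as variable as the short astacins. The standard error is the log2 fold change divided by the square root of F. Alternatives were RLE and upper-quartile factors, library totals, no filter, DESeq2 1.42.0, a replicate block, and each library left out. For correlations a prior count of 1 was added before the log2 CPM. No library was a copy of another (chi-square per degree of freedom 2.07 to 7.98 over pairs). Proteins of the study's tables were aligned globally with Biopython 1.88 (BLOSUM62, gap penalties 11 and 1), and cell-type lists took contigs at an AUC above 0.8. Contigs named are the 3 astacins, those on the astacin, metalloprotease, BMP, and marker lists, *hmcn-1*, and the 10 most alike, of which at most 2 without a name are printed. *val4* and dd_2591 are also named, from the matrisome ranking chosen after the values were seen. The 3 contigs and all lists were chosen with earlier results of these data known. Tables and plots used Python 3.11.15, pandas 2.3.3, and matplotlib 3.10.9.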

Additional observations from a re-analysis of the deposited data

How the results depend on the processing

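The log2 fold changes of dd_345, dd_497, and dd_961 stayed positive under each alternative, at 0.89 to 1.88, 0.92 to 1.93, and 0.75 to 1.75 when each library was left out, with the upper ends without control replicate 1. Deviations from condition means correlated at 0.026, 0.084, and 0.014 between same-numbered libraries, and at -0.063 to 0.043 between differently numbered ones. These small values do not settle whether the replicate number paired the libraries. With the number as a replicate block the log2 fold changes were 1.30, 1.33, and 1.15. The highest over the lowest *hmcn-1(RNAi)* library was 1.30 to 1.92 for dd_345, 1.25 to 1.90 for dd_497, and 1.17 to 1.79 for dd_961 with each library left out, and the same ratio of control libraries 1.39 to 3.41, 1.31 to 3.44, and 1.23 to 3.32. The lowest correlation between the contigs, 0.995, was 1 by Spearman, 0.993 from deviations from condition means, and 0.992 to 0.998 with each library left out. Of all contigs, 65 had r over 0.95 with their profile, against 31 by Spearman, 170 from deviations, and 131 to 173 with each library left out. Of the 65, these settings kept 16, 39, and 36 to 65. The cut of 0.95 is not equally strict across these measures and numbers of libraries, so the counts are not directly comparable.

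Over all contigs, 173 were called, against 339 without the filter, 292 with the replicate block, 66 by DESeq2 without independent filtering, and 75 to 255 with each library left out. Of the 11 other astacins, 0 to 1 were called with each library left out, the call being dd_12688 without control replicate 1. The cause of these changes was not tested. Each condition had 3 pools of 5 tails, and contigs with few reads, such as *bmp* with 8 to 30 reads in a library, are also limited by depth.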
